A study of Mus musculus with 6 samples.

Results

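The genes described here encode the subunits and assembly factors of the proteasome. They were taken as all probe sets that the array annotation maps to exactly 1 symbol starting with Psma, Psmb, Psmc, Psmd, Psme, Psmf or Psmg, or to Adrm1 or Pomp. The rule found 75 of the 21646 probe sets tested, for 46 of 11429 genes. Of these, 72 probe sets for 44 genes belong to the proteasome. The other 3 probe sets belong to Psmc3ip and Psme3ip1, which match by spelling alone and are set apart below. Adrm1, Psma8, Psmb8, Psmb9 and Psmb10 are not analysed here, and Psme2 appears only on a probe set shared with Psme2b.

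The study compared mouse oocytes before and after meiotic maturation on Affymetrix expression arrays, with 3 samples at each stage that its design text calls biological replicates. Fully grown germinal vesicle (GV) oocytes, arrested in prophase of meiosis I, came from the large antral follicles of mice 22 to 24 days old, primed 44 to 46 h earlier by 5 IU of eCG (equine chorionic gonadotropin), and were kept from maturing with 5 µM milrinone, an inhibitor of the oocyte phosphodiesterase. Metaphase II (MII) oocytes came from mice of that age and priming that also received 5 IU of human chorionic gonadotropin (hCG), were taken from the oviduct 14 h later, were freed of cumulus cells with hyaluronidase and had a visible first polar body. Cumulus cells of the GV oocytes were removed by pipetting instead, so stage, hCG, milrinone and the way of denuding cannot be told apart. Each sample pooled 300 oocytes, and 10 ng of its total RNA was amplified in 2 rounds, each primed with a mixture of primers. A value is therefore a share of the amplified RNA of a pool. It does not show how many of the pooled oocytes changed in a messenger, or whether the total RNA per oocyte changed.

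The proteasome degrades proteins tagged with ubiquitin. Its core particle is a barrel of stacked alpha and beta rings whose beta subunits carry the protease sites. The regulatory particle on its end consists of a base, with a ring of ATPases that unfold and feed in the substrate, and a lid, which removes the ubiquitin chain. In oocytes, degradation of cyclin B and securin by this route is part of leaving each metaphase. The measurements below are of messenger RNA, and no subunit protein or activity was measured.

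On the deposited scale, most proteasome genes had a lower messenger level in MII than in GV oocytes. With equal array medians 19 of the 44 were lower, and with quantile normalization 22. The size of the difference varied widely from one subunit to the next. On the deposited log2 scale, 28 of the 44 genes fell and 3 rose (limma, Benjamini-Hochberg adjusted p under 0.05). The same test called 37.8% of all genes lower and 10.5% higher, and left 51.7% without a call. A fall of 4-fold or more was measured in 14 of the 44, against 9.84% of all genes. The median difference, MII minus GV, was -0.93 (quartiles -2.59 and -0.22), and it was -0.20 over all genes. For 35 of the 44 genes, 30 of them lower in MII, the 2 stages had separate ranges, as did 57.9% of all genes. The count per gene uses its brightest probe set, the one with the highest mean over the arrays of both stages. This mean includes MII, so a steep fall makes a probe set less likely to be chosen. In Psmb4 and Psmd11, a steeply falling probe set was brighter in GV than the one chosen. Over all 72 probe sets, 46 fell and 5 rose, beside 34.1% and 10.9% of all probe sets.

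**Figure D1:**
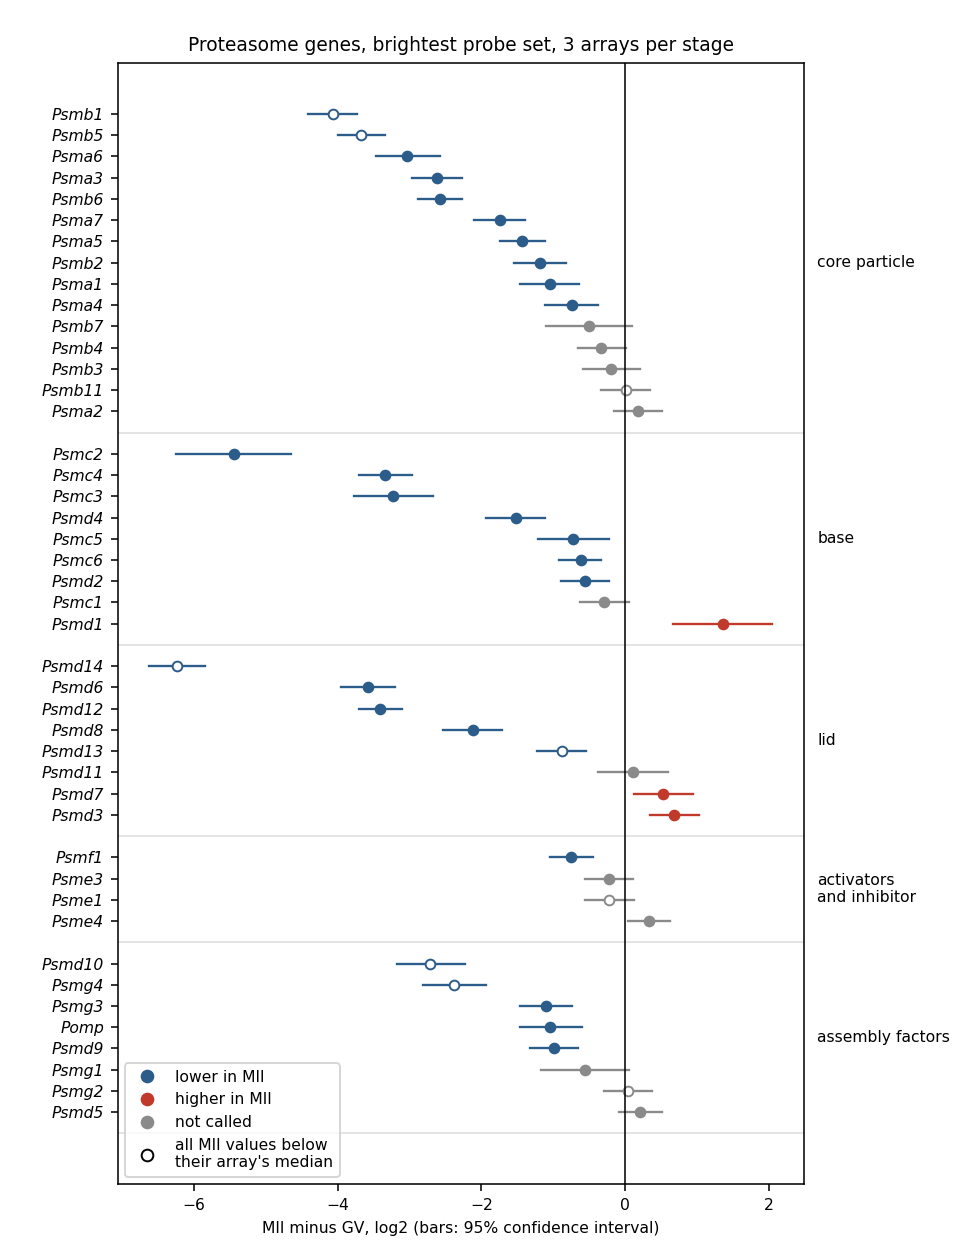
Difference between MII and GV oocytes on the log2 scale for the brightest probe set of each of 44 proteasome genes, grouped by particle, with the 95% confidence interval of the fit over 3 arrays per stage. Blue, red and grey mark genes called lower, higher and not called, and an open circle marks a gene whose MII values all lay below their array's median; falls reach -6.24 for Psmd14, and Psmd1, Psmd3 and Psmd7 lie to the right of 0.

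The scale between arrays sets how many genes are called each way. Median values over all tested probe sets were 6.10 to 6.12 on the GV arrays and 5.47 to 5.49 on the MII arrays, and neither level is known to be equal or unequal in the oocytes. With the medians made equal, which moves the typical gene up by 0.62, 19 proteasome genes were lower and 12 higher, against 22.5% and 52.2% of all genes. Quantile normalization (a shift of 0.37) gave 22 lower and 5 higher, against 24.5% and 34.5% of all genes. Equal hybridization controls (a shift of -0.40) gave 30 and 1, against 36.7% and 0.437%. The means of these hybridization features were 9.82, 8.97 and 8.94 on the GV arrays and 9.86, 9.66 and 9.42 on the MII arrays. The stages overlap in them, so this scale also moves GV sample 1 relative to the other GV samples. Equal poly-A controls (a shift of -0.87) gave 41 and 0, against 86.5% and 0.271%, so on that scale most genes of the array were called lower, members or not. The means of these poly-A features were 4.28 to 4.71 on the GV arrays and 5.14 to 5.43 on the MII arrays. Each lay below its array's median, so this scale rests on dim features, for which no background measure was used. The 19 genes lower with equal medians were lower on all 5 scales, and no proteasome gene was called higher on all 5. The 9 falls that were not called with equal medians were those of Pomp (-0.41), Psma1 (-0.42), Psma4 (-0.12), Psmc5 (-0.09), Psmc6 (0.00), Psmd13 (-0.26), Psmd2 (0.07), Psmd9 (-0.36) and Psmf1 (-0.13). Of these, Pomp (-0.36), Psma4 (-0.13), Psmc5 (-0.28), Psmc6 (-0.13), Psmd2 (-0.05) and Psmd9 (-0.32) were also not called with quantile normalization. None of the 28 lower and 3 higher calls of the deposited scale became a call in the opposite direction on another scale.

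**Figure D2:**
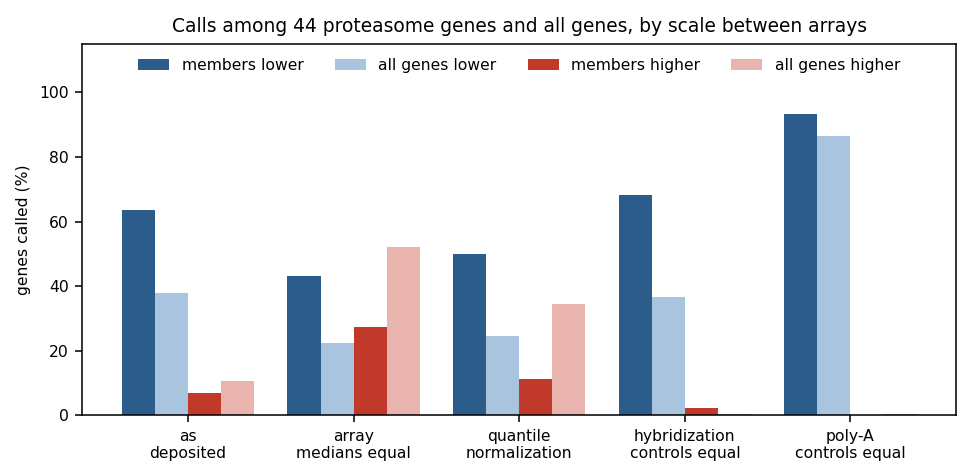
Percent of the 44 proteasome genes (dark bars) and of all genes (light bars) called lower (blue) or higher (red) in MII, for the deposited scale and 4 other scalings of the arrays. The number of proteasome genes called lower runs from 19 with equal medians to 41 with equal poly-A controls, and the dark blue bar is above the light blue bar on each scale.

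The promoters of the genes are shown as background to the family. In somatic cells, transcription of proteasome genes is known to be driven by the factor Nfe2l1 through antioxidant response elements. General promoter factors of the ETS and nuclear respiratory families also drive it. The arrays measure messenger levels and not transcription, and a part of these promoters in the differences between the stages was not tested. RefSeq (GRCm38.p6) promoter entries were matched by gene for 37 of the 44 members, of which 25 were lower, 1 higher and 11 not called. The 250 bases before each start were searched on both strands for 8 motifs. The antioxidant response element core, TGACNNNGC, was present in 5 of the 37 (13.5%), and in 13.8% of the 9267 genes of the array with such an entry. All 5 (Psmb5, Psmb6, Psmc6, Psmd12 and Psmd9) were genes that fell. An ETS motif, CCGGAAG, was present in 13 of 37 (35.1%, against 15.1%), 8 of them genes that fell and 5 genes without a call. The motif of nuclear respiratory factor 1 was present in 6 of 37 (16.2%, against 9.26%), 5 of them genes that fell. The other motifs were the CCAAT box, CCAAT (35.1% against 40.9%), the YY1 motif, AAGATGG (5.41% against 5.14%), the E-box, CACGTG (8.11% against 9.86%), the heat shock element, GAANNTTC (5.41% against 6.20%), and the cyclic AMP response element, TGACGTCA, found in 0 of 37 against 2.98%. The motifs can overlap one another, the search gives letters and not binding, and no test was made of these shares. The stretches below are from the promoters of steeply falling members, 5′ to 3′ on the gene's strand, with the match in capitals; CTTCCGG and GCTGTGTCA are matches read from the other strand.
Psmb5, antioxidant response element core, chr14:54618008-54618068, minus strand: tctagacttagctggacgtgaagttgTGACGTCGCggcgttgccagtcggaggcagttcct
Psmb6, antioxidant response element core, chr11:70525322-70525356, plus strand: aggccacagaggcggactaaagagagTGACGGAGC
Psmd12, antioxidant response element core, chr11:107479278-107479315, plus strand: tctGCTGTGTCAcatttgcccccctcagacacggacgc
Psmd12, ETS motif, chr11:107479485-107479527, plus strand: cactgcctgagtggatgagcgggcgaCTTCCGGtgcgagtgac
Psmd6, ETS motif, chr14:14120958-14121016, minus strand: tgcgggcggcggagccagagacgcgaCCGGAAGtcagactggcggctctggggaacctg
Psmc2, ETS motif, chr5:21786697-21786746, plus strand: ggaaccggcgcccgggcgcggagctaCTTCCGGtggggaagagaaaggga
Psmd14, nuclear respiratory factor 1 motif, chr2:61711588-61711649, plus strand: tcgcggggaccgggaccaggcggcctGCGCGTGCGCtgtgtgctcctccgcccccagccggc
The matches end 39 bases before the start in Psmb5, 1 in Psmb6 and 71 in Psmd14. Psmd12 holds both an antioxidant element and an ETS match, which end 239 and 11 bases before its start.

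In the core particle, 10 of 15 genes fell and 0 rose, beside 37.8% and 10.5% of all genes. The median difference was -1.18. The alpha ring, which gates the entrance to the barrel, had falls in 6 of 7 genes. Psma6 read 10.95, 10.89 and 10.76 in the GV samples and 7.70, 8.30 and 7.53 in the MII samples. The lowest GV value thus lay more than 2 log2 units above the highest MII value. Psma6 fell by 3.03 ± 0.20 (SE) on the log2 scale, an 8.15-fold difference (limma, Benjamini-Hochberg adjusted p = 8.34e-07). Psma3 read 10.11, 10.47 and 10.28 against 7.58, 7.87 and 7.55, a 6.14-fold fall (4.39e-07 in the same test). For Psma7 the GV values were 8.61, 8.83 and 8.88 and the MII values 7.22, 7.09 and 6.78, a 3.35-fold fall (8.73e-06). In these 3 genes no MII value reached the GV range. Smaller falls were measured for Psma5 (-1.43), Psma1 (-1.05) and Psma4 (-0.74). The last alpha gene, Psma2, was not called: its values were 11.23, 11.13 and 11.47 in GV and 11.60, 11.45 and 11.33 in MII, and its difference of 0.18 had a 95% interval of -0.15 to 0.51.

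The beta ring holds the protease sites, and the genes of its 3 catalytic subunits had different values. Psmb5, the chymotrypsin-like subunit, read 8.42, 8.67 and 8.37 in GV and 4.86, 4.67 and 4.92 in MII oocytes. It fell by 3.67 ± 0.15 (SE) on the log2 scale (limma, Benjamini-Hochberg adjusted p = 4.22e-08), 12.7-fold in the deposited values. Psmb6, the caspase-like subunit, read 9.82, 9.98 and 9.85 against 7.19, 7.46 and 7.28, a 5.96-fold fall (2.23e-07). For both genes the stages were far apart. Psmb7, the trypsin-like subunit, read 9.01, 9.78 and 9.43 in GV and 9.14, 9.25 and 8.32 in MII, where the groups overlap. Its difference of -0.50 had an interval of -1.10 to 0.09 and was not called, but Psmb7 was called lower with equal hybridization controls (-0.91) and equal poly-A controls (-1.37). It was 0.12 with equal array medians and -0.06 with quantile normalization, neither called. Subtracting Psmb7 from Psmb5 within each array, which no shift of an array's level can change, gave -0.59, -1.11 and -1.06 in GV and -4.28, -4.58 and -3.40 in MII. The gap between these catalytic subunit messengers therefore differed by 3.17 between the stages, as a description without a test. Among the other beta genes, the structural subunit Psmb1 was lowest relative to GV: it read 8.86, 9.29 and 9.14, then 4.91, 5.02 and 5.15, a 16.8-fold fall in the deposited values (3.45e-08). Psmb2 fell by 1.18, while Psmb3 (-0.19) and Psmb4 (-0.33) were not called. Psmb11, the thymus-specific beta subunit, stayed between 3.20 and 3.59 on every array, below each array's median. The MII values of Psmb1 and Psmb5 also lay below the median of their arrays, and the table gives no background measure, so the folds of such dim values are those of the deposited values only.

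Of the 9 genes of the base, 7 fell and 1 rose, beside 37.8% and 10.5% of all genes. The ATPase ring that unfolds substrates had falls in 5 of its 6 genes, with differences from -5.45 to -0.29. Psmc2 was the steepest: it read 11.16, 11.27 and 11.14 in GV and 6.62, 5.78 and 4.81 in MII. Its MII samples differed among themselves by more than many members differed between stages (SD 0.91, against 0.07 in GV), yet all lay far below GV. Psmc2 fell by 5.45 ± 0.36 (SE) on the log2 scale, or 43.8-fold (limma, Benjamini-Hochberg adjusted p = 8.57e-07). Psmc4 read 9.59, 9.70 and 9.67 against 6.09, 6.66 and 6.19, a 10.1-fold fall (1.52e-07), and Psmc3 read 8.75, 8.86 and 8.75 against 5.32, 6.22 and 5.13, a 9.37-fold fall (2.65e-06). The other ATPases moved far less. Psmc6 fell by 0.62 and Psmc5 by 0.72, a call that ended without GV sample 2 or 3 or MII sample 2 or 3 (differences of -0.48 to -0.95 over the 6 samples left out). Psmc1 was not called: it read 9.13, 9.18 and 9.09 in GV and 9.08, 8.60 and 8.85 in MII, a difference of -0.29 with an interval of -0.63 to 0.05. Within an array, Psmc2 minus Psmc1 was 2.03, 2.10 and 2.05 in GV and -2.46, -2.82 and -4.04 in MII. No shift of an array's level can change this gap. These genes had the largest and the smallest difference in the ring, so a wide gap follows from the choice of pair, and no test was made.

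The base also has subunits outside the ring. Psmd4, a receptor for ubiquitin chains, fell by 1.52 ± 0.18 (SE; limma, Benjamini-Hochberg adjusted p = 7.07e-05), and Psmd2, a docking scaffold, fell by 0.56. Psmd1, the second large scaffold of the base, went the other way: it read 10.13, 8.92 and 9.01 in GV and 10.94, 10.91 and 10.29 in MII oocytes. All MII values lay above all GV values, though GV sample 1 stood near them. Psmd1 rose by 1.36 ± 0.31 (SE), 2.57-fold (0.00493), and by 1.75 without GV sample 1. That array also had hybridization controls of 9.82 against 8.97 and 8.94 on the other GV arrays, and a difference of 0.98 between 3′ and 5′ actin features against 0.30 and 0.26, while its difference between 3′ and 5′ Gapdh features was the lowest of the GV arrays, at 2.61 against 3.00 and 2.83. Their part in the result was not tested. Psmd1 was not called with equal poly-A controls, where its difference was 0.49, or without moderation of the variance (limma, Benjamini-Hochberg adjusted p = 0.0872).

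In the lid, 5 of 8 genes fell and 2 rose, beside 37.8% and 10.5% of all genes. Its differences had the widest range of any particle. Psmd14, the enzyme that cuts the ubiquitin chain from the substrate, had the steepest fall of all members. It read 9.24, 9.75 and 9.43 in GV and 3.47, 3.17 and 3.08 in MII oocytes. The MII values lay 2 log2 units or more below the median of their arrays. Psmd14 fell by 6.24 ± 0.17 (SE) on the log2 scale, or 75.4-fold in the deposited values (limma, Benjamini-Hochberg adjusted p = 1.13e-08). Psmd6 read 9.93, 9.65 and 9.51 against 5.91, 6.37 and 6.06, a 12-fold fall (1.06e-07), and Psmd12 read 8.90, 9.10 and 8.99 against 5.48, 5.67 and 5.59, a 10.6-fold fall (4.2e-08). Both encode structural subunits of the horseshoe to which the enzyme is docked. Psmd8 fell by 2.12 and Psmd13, which was below the median of every array, by 0.88. Psmd3, another structural subunit, rose: it read 9.20, 8.97 and 8.88 in GV and 9.63, 9.91 and 9.56 in MII, a difference of 0.68 ± 0.15 (SE) or 1.61-fold (0.00466). It was not called with equal hybridization controls, and its difference was -0.19 with equal poly-A controls. Psmd7, which pairs with Psmd14 in the assembled lid, read 5.32, 5.23 and 5.38 against 6.27, 5.66 and 5.60. This rise of 0.53 ± 0.19 (0.0405) began from values below every GV median, and leaving out any GV sample or MII sample 1 ended the call (0.32 to 0.65 over the samples left out). With equal poly-A controls it was -0.34. A second, dimmer probe set of Psmd7 gave -0.12 and was not called, and the mean of both gave 0.20, also not called. On MII array 1, which holds the highest Psmd7 value, the difference between 3′ and 5′ actin features was 0.87 against 0.47 and 0.12 on the other MII arrays and that of Gapdh features 1.88 against 2.48 and 2.41, and their part in the result was not tested. Psmd14 minus Psmd7 within an array was 3.92, 4.52 and 4.05 in GV and -2.80, -2.49 and -2.52 in MII. This pair sets the steepest fall against a rise, so its gap is a description without a test.

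**Figure D3:**
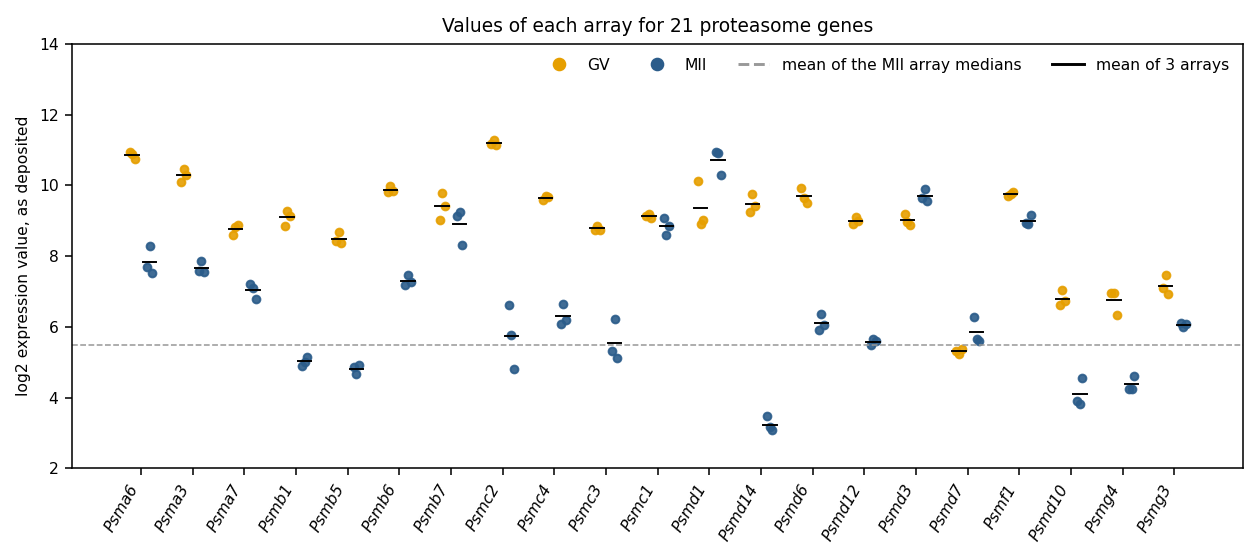
Deposited log2 value of each array for 21 proteasome genes at the GV stage (orange points) and the MII stage (blue points), with black bars for the mean of 3 arrays and a dashed line for the mean of the MII array medians. The MII points of Psmd14 lie at 3.08 to 3.47, below the dashed line, while the points of Psmb7 overlap between the stages and those of Psmd1 and Psmd3 are higher in MII.

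Psmd11, a further structural subunit of the lid, was the 1 member whose probe sets were called in opposite directions. The brightest of its 6 probe sets, of the _s_at type that may detect several transcripts, read 10.78, 9.99 and 9.97 in GV and 10.47, 10.41 and 10.19 in MII, and was not called (0.11). A second, of the _at type designed to match 1 transcript, read 10.61, 10.90 and 10.39 against 5.99, 6.34 and 5.99, a difference of -4.53 ± 0.17 (SE; limma, Benjamini-Hochberg adjusted p = 3.58e-08). Another, of the _a_at type, read 8.58, 7.60 and 8.33 against 9.49, 9.58 and 9.23, a difference of 1.26 ± 0.24 (0.00148). Neither of these pairs of groups overlaps, so no single direction can be given for the gene. Of the remaining 3, a dim one rose (0.47) and the others were not called (-0.12 and -0.22). Over all 4739 genes with several probe sets, 10.8% had calls in opposite directions.

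The probe sets of most other members pointed one way. Of the 18 members with several probe sets, 10 had every one of them lower, where 15.2% of such genes did over the array. Psmd6 had a second probe set at -3.54, close to its brightest one at -3.58. In Psmc2 the second was at -6.42 against -5.45 for the brightest, and in Psmc4 at -2.83 against -3.34. Psma6 and Psmb1 had additional dim probe sets with smaller falls (-0.61, and -0.90 and -1.26). The largest disagreement after Psmd11 was in Psmb4. Its brightest probe set read 9.63, 9.97 and 9.80 in GV and 9.29, 9.57 and 9.55 in MII and was not called, while a probe set of the _x_at type, which may bind other sequences, read 10.01, 9.93 and 10.14 against 4.93, 5.87 and 4.91, a difference of -4.79. Psmd4 fell on its brightest probe set alone, with 0.14 and -0.24 on the others, neither called. Psmb3 and Psme3 were not called on their brightest probe set and fell on a second one (-0.79 and -0.91). Psmd9 fell on its brightest (-0.99) and was not called on the other (-0.28).

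**Figure D4:**
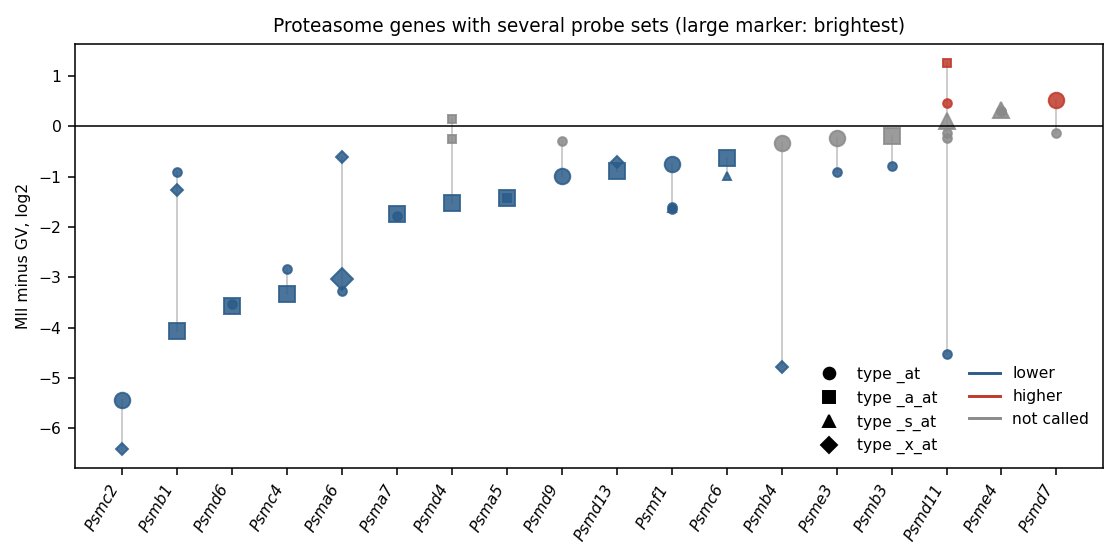
Difference between MII and GV oocytes on the log2 scale for every probe set of the 18 proteasome genes with several, where the large marker is the brightest, the shape gives the probe set type and the colour gives the call. The probe sets of Psma5, Psma7 and Psmd6 lie on top of one another, whereas those of Psmd11 run from -4.53 to 1.26 and those of Psmb4 from -4.79 to -0.33.

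The activators and the inhibitor, which bind the core particle in place of the regulatory particle, moved little. Of 4 genes, 1 fell and 0 rose, beside 37.8% and 10.5% of all genes, and the median difference was -0.22. Psmf1, an inhibitor of the core particle, read 9.70, 9.75 and 9.82 in GV and 8.95, 8.92 and 9.15 in MII. Its fall of 0.75 ± 0.13 (SE; limma, Benjamini-Hochberg adjusted p = 0.00114) was 1.68-fold, with no overlap between the stages. Its other 3 probe sets fell more, by 1.60 to 1.64. With equal array medians the brightest probe set gave -0.13 and was not called. Psme4, the activator known for its role in spermatogenesis, read 10.80, 10.89 and 10.85 against 11.09, 11.20 and 11.23. These groups do not overlap, but the difference of 0.33 (interval 0.04 to 0.62) did not pass the test (0.0622). Psme4 was called higher with equal medians (0.95), with quantile normalization (0.60) and with both other variance settings, and lower with equal poly-A controls (-0.54). Psme3, the nuclear activator, was not called on its brightest probe set (-0.23), and Psme1, a subunit of the interferon-inducible activator, stayed between 2.80 and 3.36, below the median of every array. The probe set shared by Psme2 and Psme2b, which is not a member, had a difference of -0.86.

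Among the 8 assembly factors, 5 fell and 0 rose, beside 37.8% and 10.5% of all genes. The median difference was -1.01. Psmd10 (gankyrin), a chaperone of the base, read 6.62, 7.05 and 6.73 in GV and 3.91, 3.81 and 4.56 in MII. It fell by 2.71 ± 0.21 (SE; limma, Benjamini-Hochberg adjusted p = 3.12e-06), 6.52-fold in the deposited values. Psmg4, a chaperone of the alpha ring, read 6.96, 6.95 and 6.35 against 4.25, 4.26 and 4.62, a 5.20-fold fall (3.92e-06). For both genes the MII values were below their array's median. Psmg3, the partner of Psmg4, read 7.09, 7.46 and 6.94 against 6.11, 5.99 and 6.09, a 2.14-fold fall (0.000269). Pomp, which guides the maturation of the core particle, fell by 1.04, and Psmd9, a second chaperone of the base, by 0.99. The alpha ring chaperone Psmg1 was not called: it read 8.02, 9.16 and 8.57 in GV and 7.87, 7.79 and 8.42 in MII, and the groups overlap. Its difference of -0.56 ran from -0.84 to -0.27 over the samples left out. It was 0.07 with equal array medians, and was called neither there nor with quantile normalization. Psmg1 was called lower without GV sample 1 (-0.84; limma, Benjamini-Hochberg adjusted p = 0.0185) and with equal hybridization (-0.96) or poly-A controls (-1.43). Psmd5, another chaperone of the base, was not called either (0.21), and Psmg2, the partner of Psmg1, stayed between 2.61 and 3.06, below every array's median.

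The 2 genes that met the naming rule without being part of the proteasome both fell. Psmc3ip, a factor of meiotic recombination, read 7.45, 8.07 and 7.83 in GV and 5.82, 5.60 and 5.68 in MII (-2.09), and a second probe set gave -5.07. Psme3ip1, a partner of the activator Psme3, read 9.69, 9.80 and 9.57 against 7.44, 7.91 and 7.70 (-2.01).

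Other genes of the pathway came from a list of 32 that supply substrates to the proteasome or control it. Of the 22 measured, 12 fell and 2 rose (54.5% and 9.09%, against 37.8% and 10.5% of all genes). The median difference was -0.50, with quartiles of -1.53 and -0.07. With equal array medians 8 fell and 10 rose, against 22.5% and 52.2% of all genes. Quantile normalization gave 8 lower and 5 higher, against 24.5% and 34.5% of all genes. Faf1, an adaptor of the segregase Vcp, read 9.74, 9.98 and 9.82 in GV and 6.08, 5.94 and 5.60 in MII (-3.97), although a second, dim probe set gave 0.08. Ubxn1, another adaptor of Vcp, read 7.16, 7.61 and 7.23 against 3.61, 3.82 and 4.32 (-3.42). Sem1, the smallest subunit of the lid, read 9.52, 9.96 and 9.81 against 7.02, 7.59 and 7.37 (-2.44), and its second probe set gave -2.20. These 3 genes were lower on all 5 scales. Uchl5, a deubiquitinating enzyme of the base, also fell (-2.29), as did Vcp (-1.62). The brightest probe set of Usp14, the other deubiquitinating enzyme of the base, rose: it read 12.08, 11.99 and 11.73 against 13.30, 12.65 and 12.52 (0.89). It is of the _x_at type, and the other 3 probe sets of Usp14 gave -0.64, -1.80 and -0.24, the first pair called lower, so the gene has no single direction here. Nfe2l2, a stress-responsive factor related to Nfe2l1, read 6.26, 6.08 and 6.10 against 6.63, 6.57 and 6.37 (0.38), a call just under the threshold. It was held in 7 of 18 settings, the deposited one included, and the difference was -0.49 with equal poly-A controls. Nfe2l1 itself read 9.35, 9.27 and 8.90 against 8.58, 8.81 and 8.63, a fall of 0.50 held in 8 of 17 settings, and its difference was 0.12 with equal array medians.

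Marker genes were checked for other cells in the pools. All 10 oocyte markers were measured, with a mean level of 10.79 to 10.85 in GV and 9.75 to 9.84 in MII. Of these, 5 were lower and 1 higher, beside 37.8% and 10.5% of all genes. Of 7 measured granulosa and cumulus markers, 3 lay below every GV median and 5 below every MII median, their mean level went from 5.80 to 5.87 in GV to 4.71 to 4.90 in MII, and 4 fell, the steepest being Gja1 (-3.74), which encodes the gap junction protein of granulosa cells. Their part in the differences above was not tested. The 3 leukocyte and 3 cumulus expansion markers measured were below every array's median at both stages. Correlations over all tested probe sets were 0.988 to 0.991 between arrays of one stage and 0.885 to 0.906 between stages, with no array apart from its group. The difference between 3′ and 5′ Gapdh features was 2.61 to 3.00 in GV and 1.88 to 2.48 in MII, so it moved with the stage, while that of actin features overlapped between the stages (0.26 to 0.98 and 0.12 to 0.87). The part of either in the falls above was not tested.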

How the data were processed

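Expression was measured on 3 GV and 3 MII arrays, 1 per pool. The values deposited by the authors are log2 expression values made with RMA and affy, per the submitters' processing notes, which give no version. What filter left the 21702 probe sets was not given in the sources used here. Each array holds 7077 distinct values, from 1.85 to 13.3. Array medians over the tested probe sets differ, so the distribution over these probe sets is not common to the arrays. The 56 control features were set aside. Symbols came from the platform's probe table, and all 46 genes matched the RefSeq table of GRCm38.p6, used for names. The stages were compared by a 2-sided moderated test of limma 3.58.1 (R 4.3.3; lmFit, then eBayes with stage as the single term). Its p-values were adjusted by the Benjamini-Hochberg method over 21646 probe sets and called under 0.05. A gene takes its brightest probe set with 1 symbol; folds are 2 to the power of the difference. No intensity filter was used, and the number of arrays limits the precision. The procedure was tested on simulated data.

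The members, the lists and the pairs compared within an array were chosen with earlier results of these data known. Values per sample are given for up to 3 called genes with the largest fall and 2 with the largest rise in each particle, for genes with opposite probe sets, and for the 3 largest called falls and rises of the pathway list; values per sample of Psma2, Psmb7, Psmb4, Psmc1, Psme4, Psmg1, Nfe2l1 and the 2 genes outside the proteasome were added after their values were seen. Alternatives were 4 scalings, 2 variance settings, a filter on dim probe sets, 2 rules for the probe set of a gene, leaving out each sample, and a replicate block.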

Additional observations from a re-analysis of the deposited data

How the results depend on the processing

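Of the 28 falls, 19 were called in every setting that measured the gene, and 27 when any 1 sample was left out; the exception was Psmc5, which was lost in 4 of 6 such fits. Scaling moved the counts most. Of all genes, 52.2% were higher and 22.5% lower with equal medians, and 34.5% and 24.5% with quantile normalization. With equal hybridization controls 0.437% were higher and 36.7% lower, and with equal poly-A controls 0.271% and 86.5%. Shares over all probe sets were not computed on these scales. With equal medians 12 genes and 19 probe sets were higher, and lower calls were 4 in the base, 3 in the assembly factors and 0 in the activators; differences changed sign in Psmb3 (0.43), Psmb4 (0.30), Psmb7 (0.12), Psmc1 (0.33), Psmc6 (0.00), Psmd2 (0.07), Psme1 (0.41), Psme3 (0.40), Psmg1 (0.07) and Nfe2l1 (0.12). With quantile normalization 5 genes and 12 probe sets were higher, the base had 4 and the assembly factors 3 lower, and Psmb3 (0.18), Psmb4 (0.04), Psmc1 (0.19) and Psme3 (0.16) changed sign. With equal hybridization controls 1 gene and 1 probe set were higher, and Psma2 (-0.22), Psmb11 (-0.40), Psmd11 (-0.29), Psmd5 (-0.20), Psme4 (-0.08), Psmg2 (-0.37) and Nfe2l2 (-0.03) changed sign. With equal poly-A controls 0 genes and 0 probe sets were higher, 8 assembly factors and 4 activators were lower, and Psma2 (-0.69), Psmb11 (-0.86), Psmd11 (-0.76), Psmd3 (-0.19), Psmd5 (-0.66), Psmd7 (-0.34), Psme4 (-0.54), Psmg2 (-0.83) and Nfe2l2 (-0.49) did. Without moderation of the variance, and among bright probe sets alone, 3 probe sets were higher, and the latter left 3 assembly factors lower since fewer were tested. The mean of a gene's probe sets gave 2 activators lower, Psmd11 at -0.51 and Usp14 at -0.45. Probe sets of the _at type alone gave 3 lid genes lower, Psmd11 at -4.53 and Usp14 at -0.64. Leaving out 1 sample gave 27 to 29 lower and 2 to 3 higher genes and 3 to 5 higher probe sets; over these fits Psmb11 ran from -0.10 to 0.09, Psmd11 from -0.03 to 0.38 and Psmg2 from -0.06 to 0.16. Numbers in the sample titles gave no sign of pairing (correlation of deviations 0.03 and 0.03). With a replicate block on numbers 2 and 3, which leaves 4 arrays, 29 genes were lower and 2 higher, 3 probe sets were higher, Psmg2 was -0.06, Psmb7 (-0.82) and Psmg1 (-0.76) were called lower, and Psmd2 (-0.47) and Psmd7 (0.32) were not called; the same arrays without the block, an alternative chosen after seeing the data, gave 29 and 2, the same values and the same calls for these genes. The causes of these changes were not tested. Low signal limits the folds of genes below their array's median, for which no background measure was used.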
